A study of Mus musculus with 6 samples.

Results

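The embryonic and adult globin genes were described in sorted hematopoietic stem cells (HSCs) of mouse fetal liver, where their RNA is commonly read as red-cell RNA in the sort. Members were taken by symbol from a list of 9 globin symbols of the alpha-like and beta-like clusters. Of these, 7 were analysed, among 38926 gene rows: Hba-x, Hba-a1 and Hba-a2 of the alpha-like cluster and Hbb-y, Hbb-bh1, Hbb-bs and Hbb-bt of the beta-like cluster. Hbb-b1 and Hbb-b2, names of the adult beta pair in another haplotype of laboratory mice, were not analysed here, and the labels give no strain. All 7 members passed the filter on low counts, which left 13646 genes for testing.

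RNA sequencing covered 6 samples of HSCs that were sorted by surface markers from livers of E14.5 embryos. The 3 control samples had the genotype Vav-Cre; Dpy30F/+ and the 3 knockout samples had the genotype Vav-Cre; Dpy30F/-. Dpy30 is a core subunit of the complexes that methylate histone H3 at lysine 4. All 6 samples carried Vav-Cre, a transgene driven by the Vav promoter in blood-forming cells, and a floxed Dpy30 allele, so control cells in which Cre acted keep a single intact allele and are not wild type. Each of 3 litters gave 1 control and 1 knockout sample, which share the litter's number here, and whether a sample is 1 embryo or a pool is not given in the labels.

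Hemoglobin is a tetramer of alpha-like and beta-like chains, and each cluster holds genes that are used at different stages. Primitive red cells from the yolk sac make embryonic chains from Hba-x (zeta), Hbb-y (epsilon y) and Hbb-bh1 (beta h1), while definitive red cells of the fetal liver and adult marrow make adult chains from Hba-a1, Hba-a2, Hbb-bs and Hbb-bt. HSCs themselves make little or no globin, so globin RNA in a stem cell library is commonly read as RNA carried over from red cells or their precursors. In whole-sample RNA, fewer red cells and less globin RNA per cell cannot be told apart.

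The library total over all genes ranged from 35559444 to 43394700 counts in controls and from 31897737 to 36679347 in knockouts. Dpy30 had 712, 904 and 1395 counts in the controls and 315, 216 and 478 in the knockouts, so the groups did not overlap but the transcript was still counted in each knockout. All 12 HSC markers examined (among them Kit, Mecom and Hlf) passed the filter. Knockout 3 stood apart from the other 5 libraries in these markers: their summed level was 421 CPM (counts scaled to 1000000 per library) there and 813 to 955 CPM elsewhere. The same library had the highest sums of macrophage markers, at 1402 CPM, and of neutrophil and mast cell markers, at 403 CPM. Globin fold changes and the summed globin share are given with and without it, and the other gene lists only with it. Mitochondrially encoded genes took 54.4% to 67.7% of gene counts in controls and 49.2% to 55.7% in knockouts.

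The adult genes come as near-identical copies, which limits what a count of each copy means. Over the coding sequence, Hba-a1 and Hba-a2 were identical at 428 of 429 bases and Hbb-bs and Hbb-bt at 443 of 444, in the GENCODE M21 transcripts of GRCm38. The differences were C381T from Hba-a1 to Hba-a2, at the third position of codon 127, and C417T from Hbb-bs to Hbb-bt, at the third position of codon 139, counted from the first coding base. The coding stretches around these bases are shown because they are the only coding letters that separate the copies, with the differing base in capitals. They run from coding base 351 to 410 in the alpha pair and from 385 to 444 in the beta pair.
Hba-a1: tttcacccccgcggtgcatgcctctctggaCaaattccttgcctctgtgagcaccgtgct
Hba-a2: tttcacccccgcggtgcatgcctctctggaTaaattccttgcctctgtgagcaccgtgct
Hbb-bs: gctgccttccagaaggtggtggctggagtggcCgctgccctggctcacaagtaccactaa
Hbb-bt: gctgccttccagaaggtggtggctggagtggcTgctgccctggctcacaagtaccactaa

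A read can be given to a single copy only where it covers a base that the other copy does not share. Windows were searched for among transcripts, not in the whole genome. Of the 50-base windows of each transcript, 67.5% in Hba-a1 (439 of 650), 86.9% in Hba-a2 (439 of 505), 65.8% in Hbb-bs (381 of 579) and 58.3% in Hbb-bt (381 of 654) occurred exactly in the other copy. Windows of 100 bases were still shared at 56.5%, 74.5%, 62.6% and 54.8%. No window of Hba-x, Hbb-y or Hbb-bh1 was found in another gene at either length, and the nearest pair among the embryonic genes, Hbb-y and Hbb-bh1, had 76.4% coding identity. Reads with more than 1 alignment went to no gene. Their tally was 15.4% to 16.2% of all entries, counted or given to no gene, in controls and 13.4% to 18.3% in knockouts. A read may enter that tally once for each of its alignments, so these are not shares of reads. The adult genes are therefore undercounted against the embryonic ones by an amount that the read length, not given in the sources used here, would set.

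**Figure D1:**
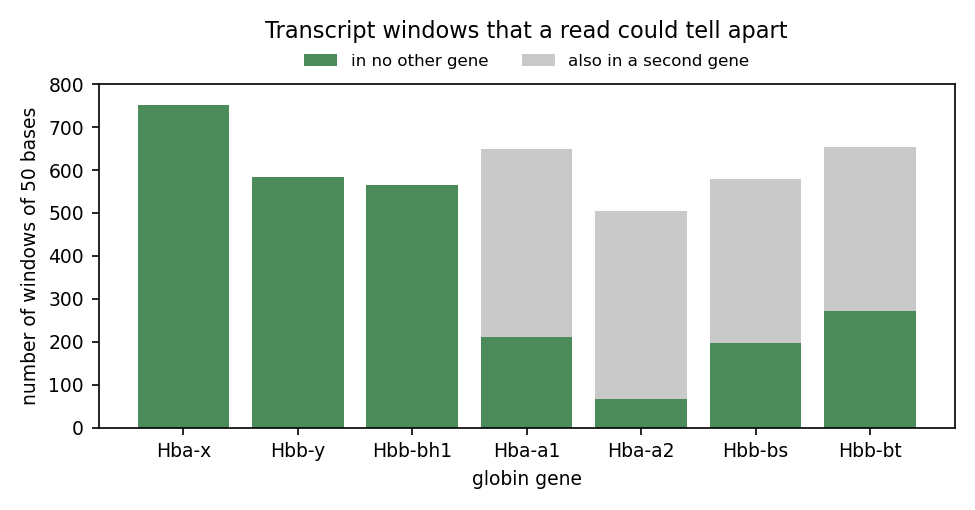
Windows of 50 bases along the transcript of each of the 7 globin genes, searched for among transcripts only. Bars give the number held by no other gene and the number shared exactly with another gene. Only the adult pairs have shared windows, from 58.3% of Hbb-bt to 86.9% of Hba-a2.

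The windows of each adult copy that are its own lay in few places. In Hba-a1, 161 of its 211 own windows of 50 bases came before the shared span, in a 5′ stretch of the GENCODE transcript that the RefSeq start, 161 bases further downstream, leaves out, and 50 covered the coding substitution. That stretch lies within 247 bases before the RefSeq start that recur before the start of Hba-a2. Reads from it that are placed against the whole genome would have more than 1 alignment. Hba-a2 had 66 own windows, 50 over the substitution and 16 at the 3′ end. Hbb-bs had 39 own windows at the 5′ end and 159 at the 3′ end, and Hbb-bt had 113 and 160. In each gene 50 of those at the 3′ end covered the coding substitution. Part of the 113 windows of Hbb-bt also depends on the annotated start. Its coding sequence begins at base 128 of the GENCODE transcript, against base 54 in Hbb-bs, and its GENCODE span reaches 103813996 on the minus strand. RefSeq places that base before its start, in the promoter stretch from 103813924 to 103814043. A count of Hba-a2 thus rests mainly on reads over a single base, and so does a count of Hba-a1 where reads are placed against the whole genome. Counts of Hbb-bs and Hbb-bt rest on their 5′ untranslated end and on the stretch from the substitution to the 3′ end.

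The genes lie in an alpha-like and a beta-like cluster and each has 3 exons. On chromosome 11, on the plus strand of GRCm38, Hba-x spans 32276400 to 32278116, Hba-a1 spans 32283511 to 32284465 and Hba-a2 spans 32296489 to 32297298. On chromosome 7, on the minus strand, Hbb-y spans 103851749 to 103853216, Hbb-bh1 spans 103841637 to 103843164, Hbb-bs spans 103826534 to 103828096 and Hbb-bt spans 103812524 to 103813996. Promoters from RefSeq on GRCm38.p6 were matched for 6 of the 7 members, not Hbb-bh1. Shown here are the 120 bases before the start of 5 of them, because the embryonic and adult genes of a cluster are used at different stages and because the adult copies of 1 pair share their promoter and those of the other do not. Capitals mark the CCAAT box, the CACCC box, the letters TATAA of a TATA box and the letters GATAA of a GATA site, each searched on both strands.
Hba-x, chr11:32276480-32276599, plus strand: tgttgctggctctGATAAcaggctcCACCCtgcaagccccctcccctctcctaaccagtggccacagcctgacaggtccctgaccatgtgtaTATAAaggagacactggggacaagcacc
Hba-a2, chr11:32296372-32296491, plus strand: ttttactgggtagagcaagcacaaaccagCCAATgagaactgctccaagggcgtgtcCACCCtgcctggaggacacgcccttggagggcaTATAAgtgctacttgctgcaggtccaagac
Hbb-y, chr7:103853208-103853327, minus strand: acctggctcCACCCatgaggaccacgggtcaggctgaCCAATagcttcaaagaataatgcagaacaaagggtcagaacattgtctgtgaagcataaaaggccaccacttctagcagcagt
Hbb-bs, chr7:103827929-103828048, minus strand: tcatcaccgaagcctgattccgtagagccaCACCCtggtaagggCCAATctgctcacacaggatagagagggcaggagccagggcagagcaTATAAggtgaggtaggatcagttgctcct
Hbb-bt, chr7:103813924-103814043, minus strand: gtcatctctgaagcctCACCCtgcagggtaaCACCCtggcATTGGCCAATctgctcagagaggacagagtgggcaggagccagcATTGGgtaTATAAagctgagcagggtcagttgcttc

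CACCC, which Krüppel-like factors such as Klf1 bind, occurred in the 120 bases of all 6 promoters, and in 31.7% of the 32851 promoters in the table. CCAAT occurred in the shown window of each member with an entry except Hba-x (21.3% of all promoters), and TATAA in each except Hbb-y (11.9% of all promoters). GATAA, which holds the core that GATA factors bind, occurred in this window only in Hba-x among the 6, against 10.5% of all promoters. Within 250 bases before the start each of the 6 held it, against 22.6% of all promoters, so it is not particular to Hba-x. These counts describe letters and no binding was measured. The 250 bases before the start held an identical run of 247 bases between Hba-a1 and Hba-a2, whereas the longest identical run between Hbb-bs and Hbb-bt was 14 bases, at 69.3% identity.

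No globin gene passed a test between the knockout and control samples. By edgeR's quasi-likelihood F test with Benjamini-Hochberg adjustment over all genes tested, 0 of the 7 passed 0.05, and 0% of all 13646 genes did. At an unadjusted p under 0.05 edgeR named 0 of the 7, against 6.51% of all genes. DESeq2 called 0 of the 7, against 1.01% of all genes, and also named 0 at an unadjusted p under 0.05. The smallest adjusted p among the members was 0.866 by edgeR and 0.717 by DESeq2. The knockout mean was higher for 4 members on the fitted log2 scale and lower for 3, with a median log2 fold change of 0.13, against 0.015 over all genes tested. The groups failed to overlap for 0 of the 7 members. Over all genes tested, 14.1% had groups that did not overlap, 6.39% higher and 7.74% lower in knockouts. With a standard error between 0.50 and 1.62 on the log2 scale for each gene, the spread between samples of a group was wide, and a missed threshold does not show equal levels.

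Hba-x encodes zeta-globin, the embryonic alpha-like chain. It had 10.8, 154 and 54.5 CPM in controls 1 to 3 and 73.9, 8.60 and 135 CPM in knockouts 1 to 3. Control 1 and knockout 2 were low and the other 4 libraries far above them, so the groups overlapped over nearly their whole range, 17.9-fold from the lowest sample to the highest. The control mean was 73.2 ± 73.6 CPM and the knockout mean 72.6 ± 63.4 CPM (SD, n = 3 each), with a log2 fold change of -0.013 ± 1.03 (SE; edgeR's adjusted p = 0.999).

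Hbb-y encodes the epsilon y chain, the main embryonic beta-like partner. It had 5.01, 84.7 and 46.1 CPM in controls and 79.9, 11.8 and 32.4 CPM in knockouts. Control 1 and knockout 2 were again the lowest, and the range was 16.9-fold. The means were 45.3 ± 39.8 and 41.4 ± 34.95 CPM (SD, n = 3 each), and the log2 fold change was -0.13 ± 0.94 (SE; edgeR's adjusted p = 0.990).

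The knockout minus control difference of Hba-x on the log2 CPM scale was 2.77 in litter 1, -4.16 in litter 2 and 1.31 in litter 3. For Hbb-y it was 3.98, -2.84 and -0.51. Littermates thus differed more than the group means, and in opposite directions in litters 1 and 2.

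Hbb-bh1 encodes the beta h1 chain, which primitive red cells make earliest. It was the least abundant member and the only one with a library at 0: 0, 153 and 198 counts in controls and 41, 287 and 650 in knockouts. In CPM it stood at 0, 4.09 and 4.49 in controls and 1.03, 7.91 and 18.6 in knockouts, where the 0 of control 1 allows up to 0.104 CPM at 3 counts. Knockouts 2 and 3 lay above all controls and knockout 1 lay below controls 2 and 3. The means were 2.86 ± 2.49 and 9.17 ± 8.83 CPM (SD, n = 3 each), with a log2 fold change of 1.68 ± 1.62 (SE; edgeR's adjusted p = 0.901). It was the only member with the same sign in all litters, at 4.32, 0.94 and 2.03 on the log2 CPM scale, and the first value depends on the prior count added to 0.

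**Figure D2:**
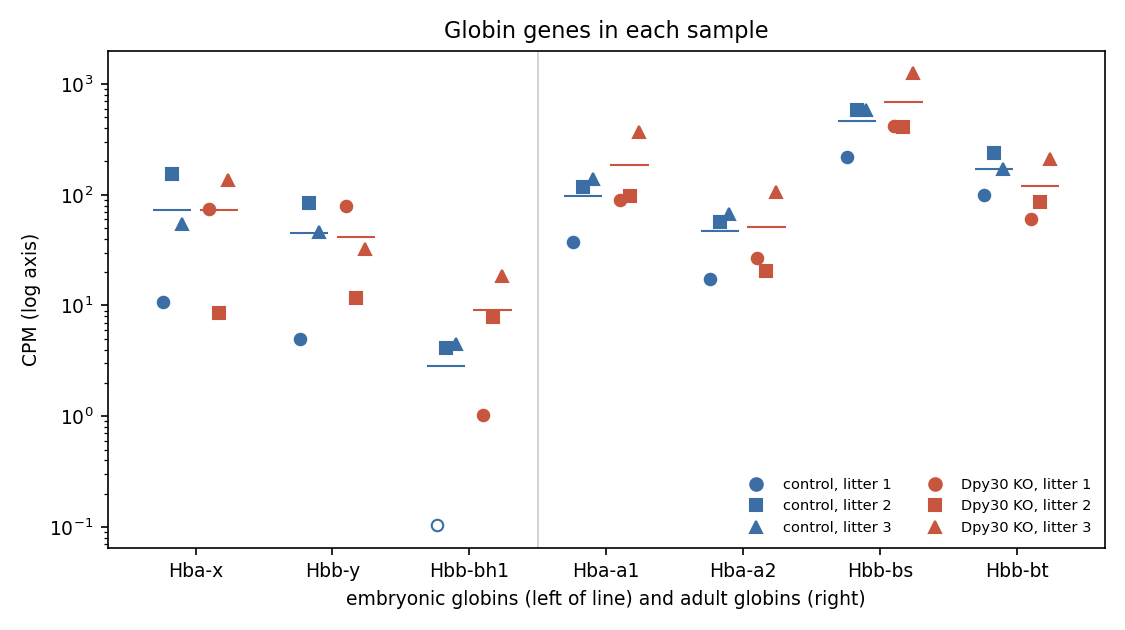
Level of each of the 7 globin genes (CPM, log axis) in the 6 samples, with a point per sample, shapes for the 3 litters and a short line at each group mean. The groups overlap for each gene, Hbb-bs is the highest gene in all samples, and the open point of Hbb-bh1 marks control 1, which is at 0 and is drawn at the 0.104 CPM that 3 counts would give.

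Hba-a1 and Hba-a2 encode the adult alpha chain. Hba-a1 had 37.5, 117 and 139 CPM in controls and 89.3, 97.0 and 367 CPM in knockouts. Hba-a2 had 17.2, 57.1 and 66.5 CPM in controls and 26.7, 20.3 and 107 CPM in knockouts. In both genes control 1 was lowest and knockout 3 highest, while knockouts 1 and 2 lay within the control range.

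The means of Hba-a1 were 98.0 ± 53.5 and 184 ± 158 CPM (SD, n = 3 each), with a log2 fold change of 0.91 ± 0.65 (SE; edgeR's adjusted p = 0.866). Without knockout 3 that value was -0.060. The means of Hba-a2 were 46.9 ± 26.2 and 51.3 ± 48.3 CPM, with a log2 fold change of 0.13 ± 0.71 (SE; edgeR's adjusted p = 0.990), and -0.98 without knockout 3. Both values thus turned below 0 without that library, and that of Hba-a2 was also -0.27 without control 1.

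Hbb-bs and Hbb-bt encode the adult beta chain. Hbb-bs had 221, 581 and 579 CPM in controls and 422, 406 and 1249 CPM in knockouts. Hbb-bt had 99.0, 237 and 173 CPM in controls and 60.9, 86.4 and 210 CPM in knockouts. Knockout 3 was the highest library for Hbb-bs but not for Hbb-bt, whose highest value was in control 2 and whose lowest values were in knockouts 1 and 2.

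The means of Hbb-bs were 460 ± 207 and 692 ± 482 CPM (SD, n = 3 each), with a log2 fold change of 0.59 ± 0.52 (SE; edgeR's adjusted p = 0.892), and -0.14 without knockout 3. The means of Hbb-bt were 170 ± 69.3 and 119 ± 79.8 CPM, with a log2 fold change of -0.51 ± 0.50 (SE; edgeR's adjusted p = 0.902). Without knockout 3 it was -1.19 ± 0.39 (SE; edgeR's unadjusted p = 0.0168, adjusted p = 0.607). The adult beta copies therefore had fitted changes of opposite sign. With the copies summed before the fit, the log2 fold change was 0.70 for Hba-a1 plus Hba-a2 (edgeR's adjusted p = 0.901) and 0.37 for Hbb-bs plus Hbb-bt (edgeR's adjusted p = 0.936).

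The order of levels was compared per kilobase of transcript over all 6 samples. Hbb-bs led, at 918 ± 566 CPM per kb (mean ± SD, n = 6), and was above Hbb-bt (205 ± 103) in 6 of 6 samples, by 2.13 ± 0.68 on the log2 scale. Hbb-bt and Hba-a1 (202 ± 165) did not differ beyond their spread, with a log2 ratio of 0.19 ± 0.88 and Hbb-bt higher in 3 of 6 samples, which were the 3 controls. Hba-a1 was above Hba-x (91.0 ± 76.7) in 5 of 6 samples, by 1.52 ± 1.34. Neither Hba-x and Hba-a2 (88.7 ± 62.9), at -0.36 ± 1.12, nor Hba-a2 and Hbb-y (68.4 ± 53.1), at 0.64 ± 1.32, could be ordered. Hbb-bh1 came last, at 9.81 ± 11.0 CPM per kb, below Hbb-y in 6 of 6 samples.

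This order puts adult genes at a disadvantage, since most of their windows are shared. Per 1000 windows of 50 bases that no other gene holds, the mean over 6 samples was 2911 ± 1796 CPM for Hbb-bs, 744 ± 528 for Hba-a2, 669 ± 548 for Hba-a1 and 529 ± 265 for Hbb-bt. On that scale Hba-x (97.0 ± 81.6), Hbb-y (74.2 ± 57.5) and Hbb-bh1 (10.7 ± 12.0) all came below the 4 adult genes. The value of Hba-a1 is too low for reads placed against the whole genome, since 161 of its 211 windows recur there before Hba-a2. The alpha copies are therefore not ordered on this scale. The value of Hbb-bt counts 5′ windows that its RefSeq start leaves out, and was not computed without them. In counts, Hba-a1 was 2.05 to 4.78 times Hba-a2 in the 6 samples. Among the genes tested, Hbb-bs stood at percentile 99.7 of mean CPM, Hbb-bt at 96.5, Hba-a1 at 96.4, Hba-x at 90.0, Hba-a2 at 83.8, Hbb-y at 81.6 and Hbb-bh1 at 37.2.

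Globin RNA was present in all 6 stem cell libraries at a small share of the counts. The 7 genes together took 0.0291%, 0.130% and 0.108% of gene counts in controls and 0.0939%, 0.0632% and 0.214% in knockouts. Control 1 had the least and knockout 3 the most, with knockouts 1 and 2 inside the control range. The means were 0.0890% ± 0.0530 and 0.124% ± 0.0795 (SD, n = 3 each), a difference within the spread of either group that turned to -0.0105 percentage points without knockout 3. These shares miss the reads that aligned to both copies of an adult gene.

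The sums of the adult and of the embryonic genes were compared by library. The 4 adult genes summed to 375, 993 and 957 CPM in controls and 599, 610 and 1933 CPM in knockouts. The 3 embryonic genes summed to 15.8, 243 and 105 CPM in controls and 155, 28.3 and 186 CPM in knockouts. Knockouts 1 and 2 had nearly equal adult sums but embryonic sums of 155 and 28.3 CPM. Control 1 was lowest in both sums, and in each litter the sample with the higher adult sum also had the higher embryonic sum.

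**Figure D3:**
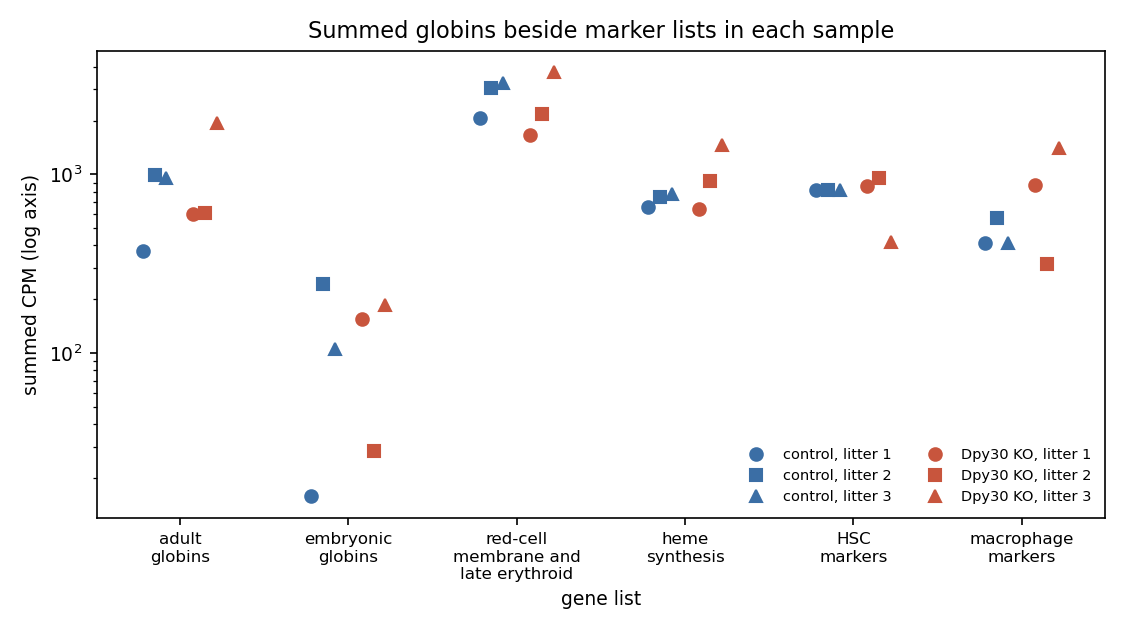
Summed level (CPM, log axis) of the 4 adult and the 3 embryonic globin genes in each of the 6 samples, beside the summed levels of red-cell membrane and late erythroid genes, heme synthesis genes, HSC markers and macrophage markers. Adult globin runs from 375 CPM in control 1 to 1933 CPM in knockout 3 and embryonic globin from 15.8 CPM in control 1 to 243 CPM in control 2.

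Other red-cell genes were measured to set the globin level beside them. Of 22 tested genes of the red-cell membrane and late maturation, edgeR called 0 at an adjusted p under 0.05, and at an unadjusted p under 0.05 it named 2 as higher and 2 as lower in knockouts (4.26% and 2.24% of all genes). Their summed level was 2069 to 3239 CPM in controls and 1669 to 3738 CPM in knockouts, the last in knockout 3, and Icam4 was at 0 in all 6 libraries. The median log2 fold change of the list was -0.24, against 0.015 over all genes tested. Slc4a1, the band 3 anion exchanger, had 200, 556 and 487 CPM in controls and 98.9, 196 and 278 CPM in knockouts, so the groups overlapped (log2 fold change -1.12 ± 0.47 SE, edgeR's adjusted p = 0.759). Hemgn, a nuclear protein of blood precursors, had 56.7, 129 and 151 CPM in controls and 26.2, 71.5 and 29.4 CPM in knockouts (-1.40 ± 0.50 SE, edgeR's adjusted p = 0.729).

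The other 2 genes were higher in each knockout than in each control. Bpgm, which makes the 2,3-bisphosphoglycerate that lowers the oxygen affinity of hemoglobin, had 13.9, 26.6 and 33.8 CPM in controls and 48.7, 46.9 and 95.5 CPM in knockouts (log2 fold change 1.36 ± 0.44 SE, edgeR's adjusted p = 0.709). Cd59a, a complement inhibitor on the red-cell surface, had 6.60, 26.3 and 14.4 CPM in controls and 45.3, 27.8 and 60.4 CPM in knockouts (1.50 ± 0.55 SE, edgeR's adjusted p = 0.729). Neither gene passed the adjusted threshold. Knockout 3, the highest library for both, was also the highest for summed adult globin.

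Heme, the cofactor that each globin chain carries, is made by a chain of enzymes that starts with Alas1 or, in red cells, Alas2. Of 9 tested genes of this list edgeR called 0, and 7 had a log2 fold change above 0, with a median of 0.55, against 50.8% above 0 and a median of 0.015 over all genes tested. The summed level was 652 to 772 CPM in controls and 640 to 1456 CPM in knockouts, highest in knockout 3. Urod, the uroporphyrinogen decarboxylase, had 60.2, 54.2 and 70.4 CPM in controls and 71.5, 110 and 159 CPM in knockouts, without overlap (log2 fold change 0.88 ± 0.32 SE, edgeR's adjusted p = 0.729). Cpox was the most abundant of the list, at 382, 424 and 404 CPM in controls and 364, 571 and 839 CPM in knockouts. Fech, which inserts the iron, had 81.6, 118 and 134 CPM in controls and 103, 128 and 226 CPM in knockouts.

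Erythroid transcription factors and the erythropoietin receptor gave no gene at an unadjusted p under 0.05 among 9 tested, and edgeR called 0. Of the 9, 6 had a log2 fold change below 0 and 3 above, where 50.8% of all genes tested were above 0. The median log2 fold change was -0.15, and the sums were 556 to 725 CPM in controls and 448 to 612 CPM in knockouts. The 3 genes named next were chosen by mean CPM alone and do not stand for the list. Tal1, a master regulator of blood formation, had 198, 128 and 204 CPM in controls and 147, 167 and 190 CPM in knockouts. Its partner Lmo2 had 167, 140 and 146 CPM in controls and 127, 178 and 37.3 CPM in knockouts, lowest in knockout 3. Ldb1, which links these factors at globin enhancers, had 69.3, 41.9 and 59.1 CPM in controls and 32.5, 48.6 and 72.2 CPM in knockouts.

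Genes that control the embryonic-to-adult switch were also measured. Of 19 tested, edgeR called 0 and named 1 at an unadjusted p under 0.05, where 6.51% of all genes were named, so the count is near the background. That gene was Igf2bp1, a fetal RNA-binding protein, with 96.9, 81.9 and 63.1 CPM in controls and 47.1, 20.0 and 28.0 CPM in knockouts, without overlap (log2 fold change -1.35 ± 0.37 SE, edgeR's adjusted p = 0.642). The median log2 fold change of the list was -0.09. Chd4, the ATPase of the NuRD corepressor, had 374, 348 and 342 CPM in controls and 353, 370 and 438 CPM in knockouts. Dnmt1, the maintenance DNA methyltransferase, had 293, 272 and 318 CPM in controls and 281, 269 and 280 CPM in knockouts.

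Bcl11a and Lin28b lay outside the naming rule and were chosen after their values were seen, for their known part in globin switching. Bcl11a, the repressor of embryonic beta-like genes, had 242, 198 and 217 CPM in controls and 152, 209 and 157 CPM in knockouts (log2 fold change -0.34 ± 0.21 SE, edgeR's adjusted p = 0.844). Lin28b, which marks fetal blood formation, had 130, 91.5 and 68.3 CPM in controls and 66.8, 63.0 and 56.2 CPM in knockouts (-0.64 ± 0.28 SE, edgeR's adjusted p = 0.775). The ranges of Bcl11a overlapped and those of Lin28b did not, and neither gene passed the threshold. Of the 19 genes of this list, 2 were lower in knockouts without overlap, Igf2bp1 and Lin28b, against 7.74% of all genes. As many, 2, were higher without overlap, Nfix and Ehmt1, against 6.39% of all genes.

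The embryonic share of beta-like globin compares genes within a library and so does not depend on how libraries are scaled. Hbb-y plus Hbb-bh1 made up 1.54% of beta-like counts in control 1 (exact Clopper-Pearson 95% interval 1.30% to 1.81%), 9.78% in control 2 (9.47% to 10.1%) and 6.31% in control 3 (6.06% to 6.57%). In knockouts the share was 14.4% (13.9% to 14.8%), 3.84% (3.57% to 4.13%) and 3.38% (3.22% to 3.53%). Control 1 had the lowest share and knockout 1, its littermate, the highest, so the groups overlapped. The intervals cover counting error only, and the spread between samples was many times wider.

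The means were 5.88% ± 4.14 and 7.19% ± 6.21 (SD, n = 3 each), a difference of 1.32 percentage points that lay within the spread of each group. The knockout was higher in 1 of 3 litters. Without control 1 the difference was -0.853 percentage points and without knockout 1 it was -2.27. Per own window of 50 bases, the share was 0.577%, 3.85% and 2.39% in controls and 5.57%, 1.42% and 1.23% in knockouts: the order of the samples stayed and the level was less than in the counts.

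Hba-x took a larger part of the alpha-like counts than the embryonic genes took of the beta-like counts in each sample. That order holds for counts only and cannot be read as one of RNA levels, because the adult alpha copies share more of their windows than the adult beta copies do. Its share was 16.5%, 47.0% and 20.96% in controls and 38.9%, 6.83% and 22.2% in knockouts. Control 2 was highest and its littermate, knockout 2, lowest, which is the reverse of litter 1. The means were 28.1% ± 16.5 and 22.7% ± 16.1 (SD, n = 3 each), a difference of -5.49 percentage points within the spread. Without control 2 that difference was 3.93, and without knockout 2 it was 2.43. Per own window of 50 bases, Hba-x was 3.18%, 12.6% and 4.17% in controls and 10.6%, 1.47% and 5.09% in knockouts. These values count as Hba-a1's own the 5′ windows that recur before Hba-a2 in the genome.

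**Figure D4:**
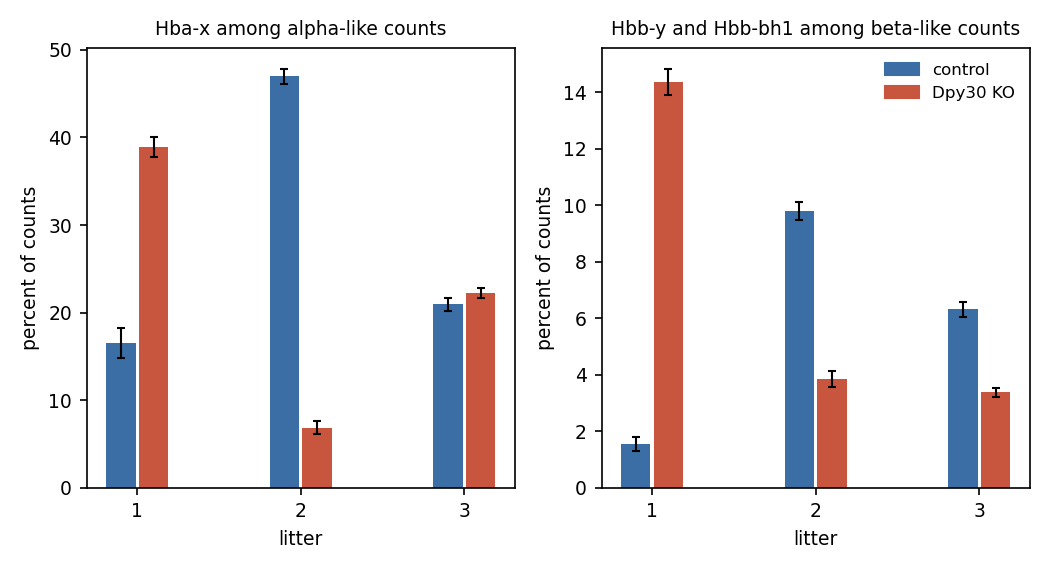
Embryonic share (percent of counts) of beta-like globin (Hbb-y plus Hbb-bh1) and of alpha-like globin (Hba-x) in each of the 6 samples, as bars with exact 95% binomial intervals, littermates side by side. Both shares overlap between the groups, from 1.54% to 14.4% for beta-like and from 6.83% to 47.0% for alpha-like counts.

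The embryonic genes did not keep a fixed ratio to each other. Hba-x counts over Hbb-y counts were 2.16, 1.82 and 1.18 in controls and 0.925, 0.731 and 4.17 in knockouts. Hbb-bh1 was 0% of the embryonic beta-like counts in control 1, where 0 of 145 counts has an exact upper limit of 2.51%, 4.61% in control 2 and 8.87% in control 3. In knockouts it was 1.27%, 40.2% and 36.4%. Knockouts 2 and 3 were above all controls and knockout 1 was not, with means of 4.49% ± 4.44 and 25.96% ± 21.5 (SD, n = 3 each).

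The balance of alpha-like to beta-like counts varied little by comparison. The ratio was 0.202, 0.362 and 0.325 in controls and 0.337, 0.246 and 0.403 in knockouts, so the groups overlapped. The means were 0.296 ± 0.0840 and 0.329 ± 0.0790 (SD, n = 3 each). The ratio of the chains themselves cannot be read from it, because the alpha copies share more of their windows than the beta copies do.

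The ratio between adult copies differed between the groups without overlap in both clusters. This comparison was chosen after the values were seen, so it is given with no test. Hba-a1 over Hba-a2 was 2.18, 2.05 and 2.09 in controls and 3.35, 4.78 and 3.43 in knockouts, with means of 2.11 ± 0.0662 and 3.85 ± 0.804 (SD, n = 3 each). Hbb-bs over Hbb-bt was 2.23, 2.45 and 3.35 in controls and 6.93, 4.70 and 5.95 in knockouts, with means of 2.68 ± 0.594 and 5.86 ± 1.11. In both pairs the knockout was higher in 3 of 3 litters. With any 1 sample left out, the difference of means was 1.28 to 1.99 for the alpha pair and 2.65 to 3.76 for the beta pair.

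Put as shares, Hba-a2 made up 31.4%, 32.8% and 32.3% of adult alpha counts in controls and 23.0%, 17.3% and 22.6% in knockouts. Hbb-bt made up 30.9%, 29.0% and 23.0% of adult beta counts in controls and 12.6%, 17.5% and 14.4% in knockouts. The copy with the smaller count in each pair thus had the smaller share in each knockout. Of the 21 ratios between members, which reuse the same genes, 3 did not overlap between groups. The third was Hba-a1 over Hbb-bt, at 0.379, 0.493 and 0.806 in controls and 1.47, 1.12 and 1.75 in knockouts. The share without overlap among ratios of other genes was not measured. The CPM of 14.1% of all genes did not overlap, but that is a measure of single genes and not of ratios.

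These ratios are ratios of uniquely placed reads, and the own windows of the copies differ in number and place. If each copy made equal RNA and reads of 50 bases fell evenly, own windows among transcripts alone would give 3.20 for Hba-a1 over Hba-a2 and 0.725 for Hbb-bs over Hbb-bt. At 100 bases the values are 2.25 and 0.725. The alpha values do not hold for reads placed against the whole genome. There 161 of the 50-base windows of Hba-a1 recur before Hba-a2, which leaves it 50 own windows against at most 66 in Hba-a2. The alpha pair is set by the coding substitution C381T and 16 windows at the 3′ end of Hba-a2. The 161 5′ windows that only GENCODE's start of Hba-a1 includes add to it only where reads are placed against transcripts. The beta pair is set by the 5′ untranslated end and the stretch from the coding substitution C417T to the 3′ end. Its value of 0.725 counts 5′ windows of Hbb-bt that the RefSeq start leaves out, and was not computed without them. The tally of reads with more than 1 alignment, 15.4% to 16.2% of all entries in controls and 13.4% to 18.3% in knockouts, overlapped between the groups. Reads that fell on more than 1 gene model also went to no gene. They were 0.780%, 0.859% and 0.885% of all entries in controls and 0.907%, 0.919% and 0.913% in knockouts, without overlap. Their part in the copy ratios was not tested. Counts of Hbb-bs and Hbb-bt assume the beta haplotype of the reference, and with no strain in the labels, which haplotype the embryos carried was not tested. Counts per gene hold no positions, so whether reads moved within the transcripts was not tested.

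**Figure D5:**
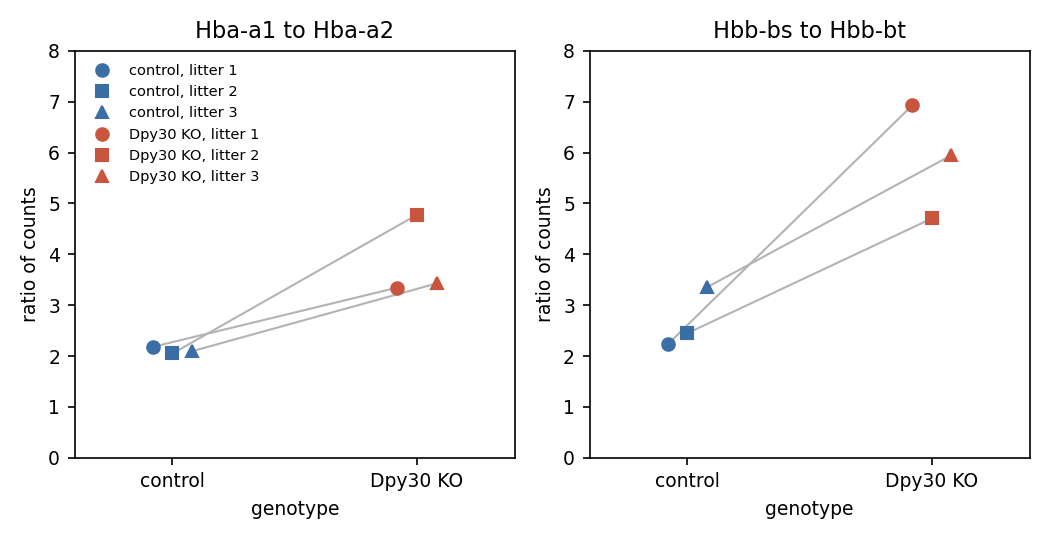
Ratio of counts between the adult copies, Hba-a1 over Hba-a2 and Hbb-bs over Hbb-bt, in each of the 6 samples, with lines joining littermates. In both pairs each knockout lies above each control, from 2.05 to 2.18 against 3.35 to 4.78 for the alpha pair and from 2.23 to 3.35 against 4.70 to 6.93 for the beta pair.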

How the data were processed

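Per the labels, HSCs were sorted from fetal liver, and poly(A) RNA was selected and made into libraries with an Agilent kit. The authors deposited a file of raw counts by gene symbol per sample, with 5 closing tallies of reads given to no gene. These tallies were left out (41.0% to 51.0% of all entries). The submitters' processing notes list CASAVA 1.8.4, TopHat2, Picard 1.126, HTSeq 0.6.0, DESeq 3.0, bedtools 2.17.0 and the build mm10. Read length, strand setting and annotation are not given in the sources used here, and no molecular tags are described, so intervals cover counting error only.

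Genes were filtered with filterByExpr, scaled by TMM and tested with edgeR 4.0.16 (R 4.3.3, quasi-likelihood F test, Benjamini-Hochberg over all 13646 genes, threshold 0.05). Fold changes compare knockout with control on the log2 scale, and the SE is their size over the square root of F. CPM uses TMM library sizes, and log2 CPM a prior count of 2. The fit was tested on simulated data, and at the spread of these samples it recovered few of the changed genes. Sums, shares and ratios were computed per sample and given with no p, and each sample of a group comes from another litter, so p-values measure the spread between samples of different litters, each of which may be 1 embryo or a pool. Alternatives were the litter as a block, other scalings, DESeq2 1.42.0, other filters, copies summed and each sample left out. Mitochondrial genes or globins were also removed before a fit, and the fit without globins tests no globin gene. Litters pair the samples per the labels, although deviations of littermates from their group means correlated at only -0.0224, -0.0752 and 0.00336.

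All members were named. Of each pathway list (other globins, late erythroid genes, heme synthesis, erythroid transcription factors, globin switching), but not of the lists of other cell types, genes with an unadjusted p under 0.05 were named and, where these were fewer than 3, the genes highest in mean CPM up to 3. The 5 genes most alike in pattern to the adult and to the embryonic sum were named too, at a mean of 5 CPM or more. Members and lists were chosen with earlier results of these data known. A marker of the HSC list is not reported here and was left out of its sum. Transcripts came from GENCODE M21 (GRCm38) and promoters from RefSeq (GRCm38.p6).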

Additional observations from a re-analysis of the deposited data

How the results depend on the processing

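No globin gene passed the threshold in any of the fits that tested the globin genes. Over all genes edgeR called 0 (888 at an unadjusted p under 0.05), DESeq2 called 138, and edgeR called 1 with no filter on low counts and 1 with at least 10 counts in every sample, a filter that leaves out Hbb-bh1. Leaving out each sample gave 0 to 0 calls over all genes and 0 to 0 among the members. Without knockout 3, edgeR gave Hbb-bt an unadjusted p of 0.0168, the only member value under 0.05 in any fit. In that fit 1125 of 14774 genes were under 0.05. With the litter as a block the fit called 0 genes (619 at an unadjusted p under 0.05) and 0 members. The block turned the log2 fold change of Hba-a2 to -0.028 and of Hba-x to 0.50 and changed no call.

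Signs of members near 0 turned with the scaling: Hba-x to 0.0072 by relative log expression, 0.0075 by DESeq2 and 0.071 by library size only, Hbb-y to 0.045 by library size only, and Hba-a2 to -0.053 by upper-quartile scaling. The median log2 fold change of all genes was 0.23 by library size only and -0.10 by upper-quartile scaling. With each sample left out, Hba-a1 ran from -0.060 (without knockout 3) to 1.25, Hba-a2 from -0.98 (without knockout 3; -0.27 without control 1) to 0.51, and Hbb-bs from -0.14 (without knockout 3) to 0.86. Hba-x ran from -0.81 to 1.15 (without control 2; 0.52 without knockout 2) and Hbb-y from -1.04 to 0.71 (without control 2; 0.31 without knockout 2 and 0.032 without knockout 3). Hbb-bh1 stayed above 0 (0.65 to 2.21) and Hbb-bt below 0 (-1.19 to -0.20). The cause was not tested.

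With each sample left out, the summed globin share differed by -0.0105 to 0.0648 percentage points, the embryonic beta-like share by -2.27 to 3.27, the embryonic alpha-like share by -13.6 to 3.93 and the alpha-like to beta-like ratio by -0.0147 to 0.0740. The turns came without knockout 3 for the sum (-0.0105), without control 1 (-0.853) or knockout 1 (-2.27) for the beta-like share, without control 2 (3.93) or knockout 2 (2.43) for the alpha-like share, and without control 1 (-0.0147) or knockout 3 (-0.00469) for the ratio. Per own window of 50 bases, an alternative chosen after seeing the data, that ratio differed by -0.00114. This alternative counts the 5′ windows of Hba-a1 that recur before Hba-a2 in the genome as own.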

Other observations

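Other genes of the globin family were low or at 0. Hbq1b, the theta chain gene of the alpha-like cluster, had 50, 152 and 65 counts in controls and 170, 0 and 3 in knockouts. The pseudogene Hba-ps4 had 64, 17 and 0 counts in controls and 0, 13 and 1 in knockouts. Hbb-bh0 was counted only in knockout 1, with 6 counts, and Ngb (neuroglobin) only in control 3, with 7 counts. Hbq1a, Hbb-bh2, Hbb-bh3, Mb (myoglobin) and Cygb (cytoglobin) were at 0 in all 6 libraries.

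Likeness of pattern to the globin sums was measured as the root mean square difference of centred log2 CPM over 6 samples, among 8456 genes. The adult sum itself varied by 0.74 on that scale, and the nearest genes were Ube2o (0.142), Kif2c (0.174), Rab31 (0.187), Snx9 (0.194) and Pmf1 (0.210). Ube2o, a ubiquitin-conjugating enzyme that removes ribosomal proteins in maturing red cells, had 10.4, 28.4 and 26.9 CPM in controls and 19.2, 21.2 and 67.7 CPM in knockouts. The embryonic sum varied by 1.46, and its nearest genes lay further off: Alas1 (0.580), Bivm (0.607), Brat1 (0.607), Ggct (0.611) and Tspan15 (0.619). With 6 samples and this many genes compared, a close match is a description only.

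Markers of other cell types were not uniform beside the globins. Among 14 tested macrophage markers, edgeR called 0 and DESeq2 called 3 (1.01% of all genes). At an unadjusted p under 0.05 edgeR named 6 as higher (4.26% of all genes): Emr1, Cd68, C1qb, Csf1r, Timd4 and Hmox1. The median log2 fold change was 1.82, against 0.015 over all genes tested. The sum over all 16 macrophage markers, tested or not, was 411 to 569 CPM in controls and 316 to 1402 CPM in knockouts. Neutrophil and mast cell markers (8 tested) had a median of 1.94 and megakaryocyte markers (7 tested) a median of 0.47. Hepatocyte markers (5 tested) had a median of -0.82, and all 9 of that list summed to 3.58 to 23.3 CPM over the libraries. The part of these cells in the globin values was not tested.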
